A study of Drosophila melanogaster with 4 samples.

Results

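The Hippo pathway restrains tissue growth in Drosophila through a short kinase cascade. The Ste20-like kinase Hpo, with its scaffold Sav, activates the kinase Wts and its cofactor Mats, and Wts phosphorylates the coactivator Yki and keeps it out of the nucleus. The adaptor proteins Ex, Mer and Kibra recruit the cascade to the cell cortex. Nuclear Yki drives growth and survival genes through the DNA-binding protein Sd, while Tgi, a protein with Tondu domains, competes with Yki for Sd and represses the same genes.

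The 10 genes examined here, Tgi, yki, sd, hpo, wts, sav, mats, ex, kibra and Mer, were chosen by their FlyBase symbols as the core of this pathway. Each matched a single entry among the 17697 genes of the deposited tables, and all 10 passed the filter on low counts with 8784 genes tested. Poly(A) RNA was sequenced from S2 cells, a wild type cultured line from late embryos, in 2 libraries of heat shocked cells and 2 libraries of untreated cells. All cells were grown at 27 °C in DMEM with 10% serum. The heat shock cells were held at 37 °C for 1 h and returned to 27 °C for 1 h before lysis, so the data describe early recovery. The line is a single cultured population, and these are bulk libraries, in which fewer cells and less RNA per cell cannot be told apart. Separate lysis of the replicates is given in the labels for heat shock cells and not for untreated cells, so the p-values measure only the spread between these libraries.

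Library totals ranged from 10221418 to 11988483 estimated counts. The treatment was visible in its reference genes, since all 14 heat shock genes listed were higher and the 6 Hsp70 copies held 12.9% and 14.3% of counts after heat shock, against 0.0671% and 0.0699% in untreated cells. Of 9 hemocyte markers, which S2 cells are known for, 6 had at least 10 counts in every library, whereas NimC1, eater and Sr-CI had at most 8. Among the 6, Hml and Pxn were also low, at 10 to 22 and 17 to 40 counts. The neuronal gene elav was also present, at 813 and 683 estimated counts after heat shock against 808 and 919 in untreated cells. Of the other neuronal genes listed, nSyb had 29 and 17 counts after heat shock against 4 and 2 in untreated cells. Syt1 had 8 to 24 counts. The muscle gene Act57B had 184 and 150 estimated counts after heat shock against 272 and 296 in untreated cells, and Mhc had 6 to 16. In the germline list vas stayed under 4 counts and nos had 2 to 6, but bam had 82 to 106. Because the heat shock messages take up so much of a library, libraries were scaled with TMM factors, which assume that most genes do not change. With total counts as the scale, the log2 fold change of the median gene moved by -0.53, and by -0.18 with totals that leave out the heat shock genes.

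The comparison of heat shock with untreated cells asked which pathway genes changed. Tgi was 1.52-fold higher after heat shock and sav was 2.32-fold lower, while ex and hpo were lower and sd higher by smaller amounts. The remaining genes, yki, kibra, Mer, wts and mats, were not past the threshold of an adjusted p of 0.05 in the quasi-likelihood test of edgeR. So 5 of 10 members were called, 2 higher and 3 lower, where 40% of all tested genes were called, 21.4% higher and 18.6% lower. The share of members called was thus near the background. The median log2 fold change was 0.12 over the members and -0.02 over all genes. Unadjusted p-values under 0.05 were found for 8 members, and for 4350 of the 8784 genes tested.

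Read against all tested genes, the place of the members varied with the measure. CPM values, that is counts scaled to a common library size, did not overlap between the groups for 9 of 10 members, 6 of them higher and 3 lower after heat shock, whereas 72.2% of all genes did not overlap, 34.4% higher and 37.8% lower. No member was called and at least 2-fold higher, as 9.37% of genes were. DESeq2 called 2 members higher and 2 lower, with 17.5% of genes called, 11.7% higher and 5.79% lower. With totals that leave out the heat shock genes, 1 member was higher and 3 were lower, with 53.7% of genes called, 15.1% higher and 38.6% lower. With total counts 9 members were lower and 0 higher, with 80% of genes called, 8.75% higher and 71.2% lower. TPM values on the log2(TPM + 1) scale also gave 9 lower and 0 higher, with 72.8% of genes called, 8.19% higher and 64.6% lower. Directions of small changes are therefore given relative to the TMM scale.

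**Figure D1:**
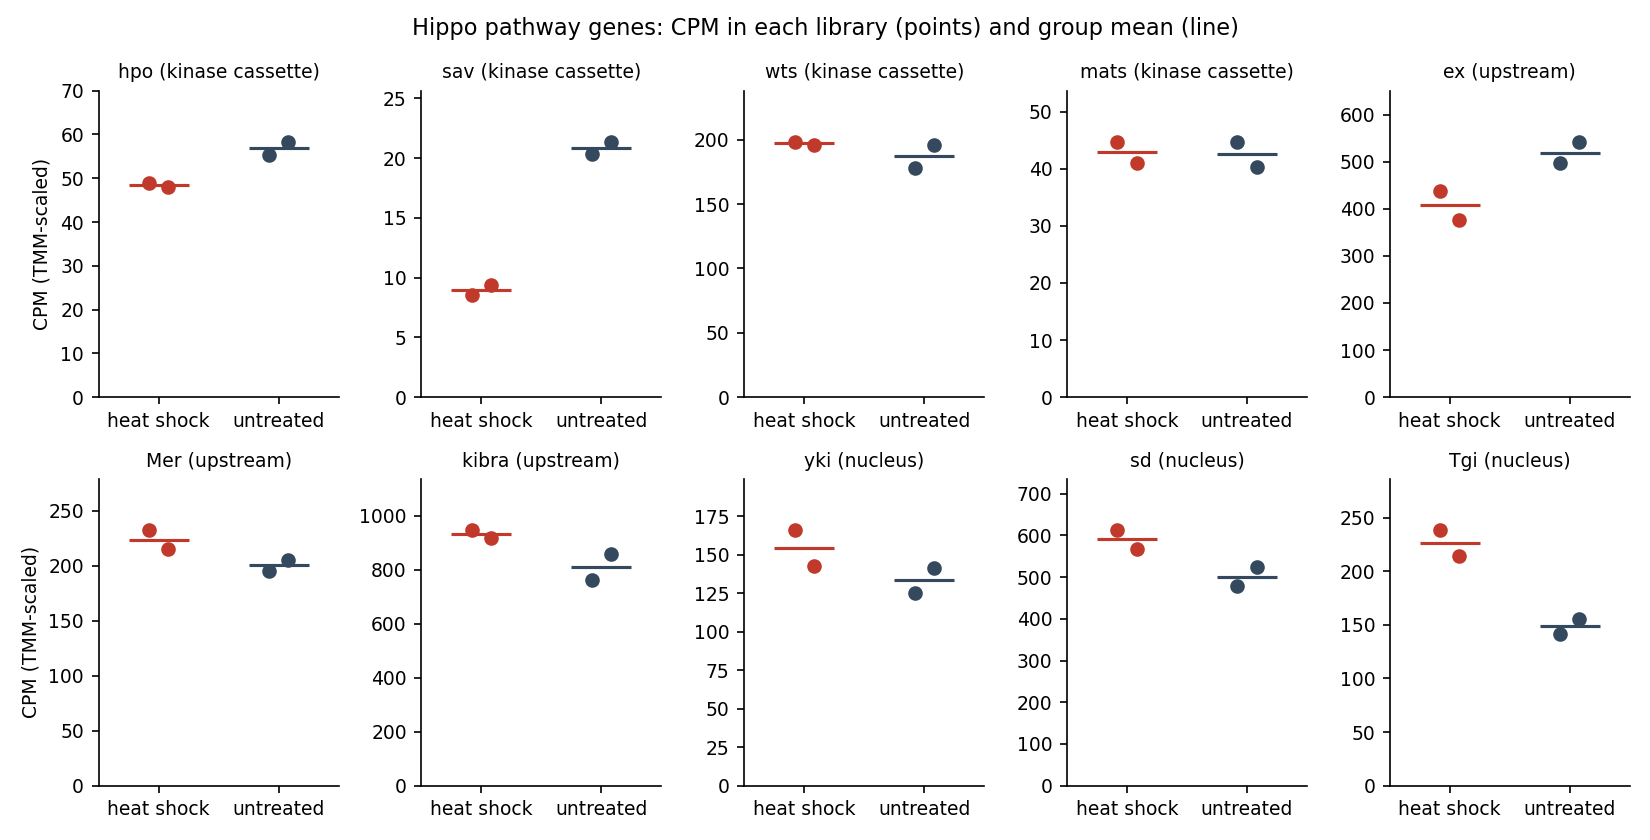
CPM on TMM-scaled totals (vertical axis from 0) of the 10 Hippo pathway genes. Points are the 2 heat shock libraries (red, left) and the 2 untreated libraries (dark, right), and lines are group means. Only mats has overlapping groups, Tgi lies higher after heat shock and sav lower, and the log2 fold changes of yki, sd, wts, mats, kibra and Mer are below 0 with total counts as the scale.

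Sav is the scaffold that couples Hpo to Wts, and sav (FBgn0053193, 3R, 23058609 to 23061304, minus strand) had the largest change among the members. It had 8.58 and 9.39 CPM after heat shock, against 20.3 and 21.4 CPM in untreated cells. Both heat shock libraries lay under both untreated ones by more than the distance between replicates. The means were 8.99 ± 0.573 and 20.9 ± 0.749 CPM (SD, n = 2 libraries each), which is -1.22 ± 0.12 (SE) on the log2 scale (edgeR adjusted p = 1.6e-04). Only 1.46% of all tested genes were called and at least 2-fold lower, and sav stood at place 77 from the lowest of 8784. The fall of sav was past the threshold in all alternatives, including each fit without 1 library, with log2 fold changes from -1.75 to -1.15. On the same strand sav shares 73 exonic bases with Ctns, or 3.27% of its exons, and the nearest tested gene upstream is CG17111. Ctns itself had a log2 fold change of -0.30 ± 0.11 (SE) and was not past the threshold (edgeR adjusted p = 0.065).

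Hpo is the kinase at the head of the cassette. The gene hpo (FBgn0261456, 2R, 19493996 to 19496856, minus strand) had 48.9 and 48.0 CPM after heat shock, against 55.2 and 58.4 CPM in untreated cells. The groups did not overlap, and the difference was -0.23 ± 0.07 (SE) on the log2 scale (edgeR adjusted p = 0.0271). This small fall was lost with DESeq2 (adjusted p = 0.245), with a replicate block (edgeR adjusted p = 0.0648), on requiring at least 10 counts in every library (0.0532) and without the second untreated library (0.0971), the first heat shock library (0.114) or the second heat shock library (0.135). The adjusted p of hpo ranged from 2.6e-06 to 0.245 over all alternatives. About 4.64% of hpo exonic bases overlap Rep on the opposite strand.

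The downstream kinase wts (FBgn0011739, 3R, 30789625 to 30806619, minus strand) had 198 and 196 CPM after heat shock, against 178 and 196 CPM in untreated cells. The lower heat shock library and the higher untreated library were nearly equal, at 195.95 and 195.94 CPM. The log2 fold change was 0.08 with an interval of -0.08 to 0.23 (95%) and an edgeR adjusted p of 0.405. Mats, the MOB-family cofactor of Wts, is encoded by mats (FBgn0038965, 3R, 22421161 to 22423302, plus strand). It had 44.7 and 41.0 CPM after heat shock, against 44.7 and 40.3 CPM in untreated cells, and the groups overlapped. Its log2 fold change of 0.01 had an interval of -0.18 to 0.20 (edgeR adjusted p = 0.912). Changes of wts and mats larger than these bounds lie outside the intervals under this scaling. With total counts as the scale both were lower and past the threshold, at -0.46 for wts and -0.52 for mats, close to the shift of the median gene.

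Among the upstream adaptors only the FERM protein gene ex (FBgn0004583, 2L, 431227 to 448701, plus strand) was past the threshold. It had 439 and 377 CPM after heat shock, against 496 and 543 CPM in untreated cells. Here too the groups did not overlap, although the heat shock replicates lay apart from each other. Means were 408 ± 43.7 and 519.5 ± 32.8 CPM (SD, n = 2 libraries each), or -0.35 ± 0.08 (SE) on the log2 scale (edgeR adjusted p = 0.0117). The fall of ex was past the threshold in all alternatives, with log2 fold changes from -0.88 to -0.25. The exons of ex and of crq, a scavenger receptor gene, overlap on opposite strands over 448 bases, or 6.72% of the exonic bases of ex. Reads of this stretch cannot be told apart without strand, whose use is not given in the sources used here, and crq was also lower, at 185 and 179 CPM after heat shock against 248 and 251 CPM in untreated cells. The part of this overlap in the fall of ex was not tested.

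Mer, the fly Merlin, is a FERM protein like Ex. The gene Mer (FBgn0086384, X, 19689697 to 19693500, minus strand) had 232 and 215 CPM after heat shock, against 195 and 206 CPM in untreated cells. Kibra, a WW domain protein that binds both, is encoded by kibra (FBgn0262127, 3R, 14697689 to 14724261, minus strand). It had 947 and 918 CPM after heat shock, against 763 and 859.6 CPM in untreated cells. Neither pair of groups overlapped, but neither difference passed the test. It was 0.16 ± 0.07 (SE) for Mer and 0.20 ± 0.07 (SE) for kibra on the log2 scale, with edgeR adjusted p-values of 0.0906 and 0.0544. Kibra was past the threshold without the second untreated library (0.28, edgeR adjusted p = 0.00163) and with RLE or upper-quartile factors (0.0466 and 0.0358). On requiring at least 10 counts in every library, kibra (0.0403) and Mer (0.0472) were both past it. With total counts Mer was at -0.37 and kibra at -0.33, past the threshold in the other direction (edgeR adjusted p = 4.8e-04 and 7e-04). On the TMM scale ex was thus lower, and the values of Mer and kibra lay on the other side of 0 without passing the test.

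In the nucleus, Tgi (FBgn0036373, 3L, 13486797 to 13502492, plus strand) had 238 and 214 CPM after heat shock, against 142 and 156 CPM in untreated cells. The lower heat shock library exceeded the higher untreated library by more than the distance between replicates. Means were 226 ± 16.9 and 149 ± 9.80 CPM (SD, n = 2 libraries each), a difference of 0.61 ± 0.08 (SE) on the log2 scale (edgeR adjusted p = 5.9e-04). Leaving out each library in turn gave log2 fold changes from 0.52 to 0.68, all past the threshold. With total counts the value of Tgi was 0.07 (edgeR adjusted p = 0.415), and with totals that leave out the heat shock genes it stayed past the threshold. On log2(TPM + 1) Tgi was at 0.08 (limma adjusted p = 0.373), and at 0.08 without a filter (0.442). On log2(TPM + 0.1) it was at 0.08 (limma adjusted p = 0.378). The study named Tgi from these same libraries, so its change here is not independent evidence of the direction.

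The neighbour of Tgi was examined after the values had been seen. Tgi starts 3282 bases past the annotated end of stv (3L, 13477541 to 13483515), on the same strand. The gene stv encodes starvin, a BAG-domain co-chaperone. It had 4826 and 4471 CPM after heat shock, against 48.3 and 49.6 CPM in untreated cells, and was 94.9-fold higher after heat shock (log2 fold change 6.57 ± 0.09 SE, edgeR adjusted p = 6.3e-10). The gene totals used here do not show where in a locus the reads lie, and the part of stv in the Tgi count was not tested. Of the other members, the nearest tested gene upstream on the same strand was called higher for hpo, wts, sav and kibra, at log2 fold changes of 0.52, 5.46, 0.87 and 1.29. It lay 21008, 64320, 1409 and 499 bases away.

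Sd carries the TEA domain that binds DNA for Yki, Tgi and Vg. The gene sd (FBgn0003345, X, 15804370 to 15827682, plus strand) had 613 and 568 CPM after heat shock, against 479 and 524 CPM in untreated cells. The groups did not overlap, and sd was higher by 0.24 ± 0.07 (SE) on the log2 scale (edgeR adjusted p = 0.0277), a direction that was reversed with total counts and on TPM values, at -0.30 in each. The call of sd was also lost without the first untreated library (0.17, edgeR adjusted p = 0.103), without the first heat shock library (0.18, edgeR adjusted p = 0.192) and with totals that leave out the heat shock genes (0.06, edgeR adjusted p = 0.462). The coactivator gene yki (FBgn0034970, 2R, 24065975 to 24068485, minus strand) had 166 and 142 CPM after heat shock, against 125 and 141 CPM in untreated cells. These groups almost touched. The log2 fold change of yki was 0.21 with an interval of 0.0042 to 0.42 (95%), and its edgeR adjusted p of 0.0953 missed the threshold. It was past it without the second untreated library (0.30, edgeR adjusted p = 0.0126) and without the second heat shock library (0.31, edgeR adjusted p = 0.00235), and turned to -0.32 with total counts.

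**Figure D2:**
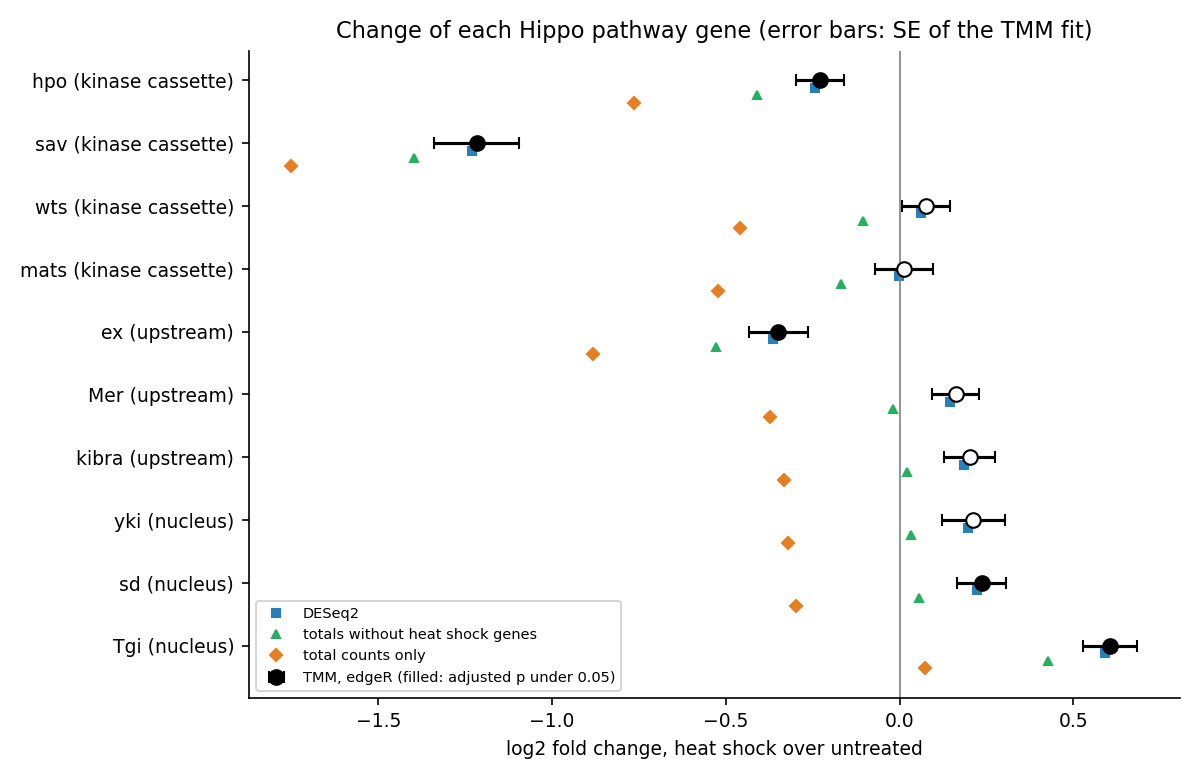
Log2 fold change of heat shock over untreated (horizontal axis) for the 10 genes, grouped by role. Black circles with SE bars are the TMM fit (filled where the edgeR adjusted p is under 0.05), and small symbols are 3 other scalings or tools. Total counts shift all 10 genes left, so that yki, sd, wts, mats, kibra and Mer become negative, while sav, ex and hpo are negative and Tgi positive under each of the 4.

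Ratios of counts within a library do not depend on the scaling. The pairs were chosen after values had been seen, and 2 against 2 libraries allow no exact permutation p under 0.333, so they are given without a test. The count of Tgi over that of sd was 0.389 and 0.378 after heat shock, against 0.296 and 0.297 in untreated cells. That of Tgi over yki was 1.44 and 1.505 after heat shock, against 1.13 and 1.10 in untreated cells. Both ratios lay higher in each heat shock library, by 0.37 and 0.40 on the log2 scale. The ratio of yki over sd was 0.271 and 0.251 after heat shock, against 0.262 and 0.2697 in untreated cells, so the groups overlapped for the activator and its DNA-binding partner. In the kinase cassette, sav over hpo was 0.176 and 0.196 after heat shock, against 0.369 and 0.366 in untreated cells. The ratio of mats over wts was 0.225 and 0.209 after heat shock, against 0.251 and 0.205 in untreated cells, again with overlap. Among adaptors, ex over Mer was 1.89 and 1.75 after heat shock, against 2.55 and 2.64 in untreated cells, whereas kibra over Mer overlapped between the groups.

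**Figure D3:**
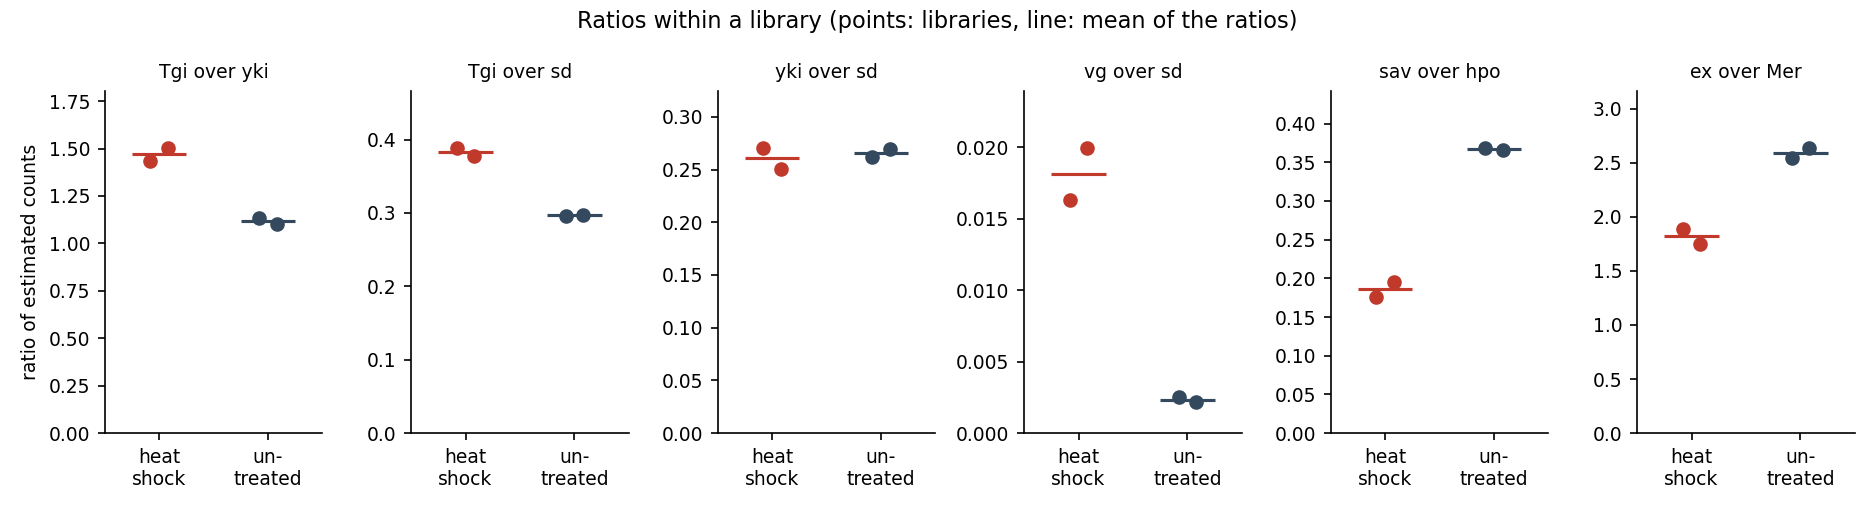
Ratios of estimated counts within each library (vertical axes from 0) for 6 gene pairs, heat shock libraries in red on the left and untreated libraries in dark blue on the right, with lines at the means. Tgi over yki, Tgi over sd and vg over sd are higher in both heat shock libraries, sav over hpo and ex over Mer are lower, and yki over sd overlaps.

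Levels were compared between genes on TPM values, which correct for transcript length, and within each group only. After heat shock the order of mean TPM was kibra, sd, Tgi, yki, Mer, ex, wts, mats, hpo and sav. In untreated cells it was kibra, sd, yki, Mer, ex, Tgi, wts, mats, hpo and sav. Kibra and sd could not be ordered in either group, since their replicates overlapped at 257 and 248 TPM for kibra and 264 and 239.7 TPM for sd after heat shock, against 304 and 329 TPM for kibra and 302 and 318 TPM for sd in untreated cells. Tgi and yki also overlapped after heat shock, at 184 and 164 TPM for Tgi and 177 and 149 TPM for yki. In untreated cells the overlapping neighbours were Mer with ex and ex with Tgi, and Tgi had 159 and 169 TPM. The other neighbours did not overlap, but yki and Mer in both groups and mats and hpo in untreated cells lay closer to each other than the replicates of yki or mats, so their order is not beyond the spread. By mean TPM, Tgi thus stood at place 3 of 10 after heat shock and place 6 of 10 in untreated cells. Its replicates overlapped those of yki after heat shock and those of Mer and ex in untreated cells, so these places are not resolved. The lowest 4 places were the kinase cassette in both groups. The sav level was 5.80 and 6.30 TPM after heat shock, against 19.9 and 20.3 TPM in untreated cells. The highest mean level among the members was 41.7 times the lowest after heat shock and 15.8 times the lowest in untreated cells.

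**Figure D4:**
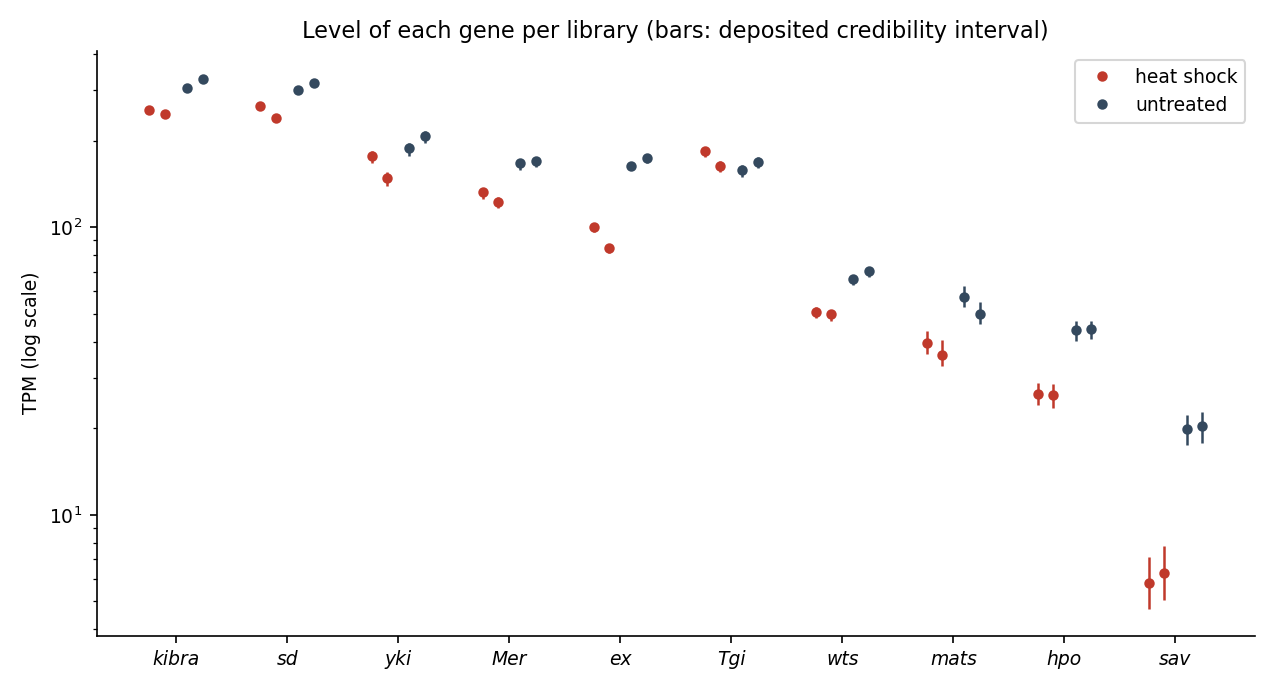
TPM (vertical axis, log scale) of the 10 genes in each library, ordered by their mean in untreated cells, with heat shock libraries in red on the left and untreated libraries in dark blue on the right of each gene. Bars are the credibility intervals deposited with the values. The 4 kinase cassette genes wts, mats, hpo and sav are lowest in both groups. By mean TPM, Tgi is at place 3 after heat shock, overlapping yki, and at place 6 in untreated cells, overlapping Mer and ex. TPM carry no composition factor, so heights are compared within a colour only.

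The deposited tables also give a posterior SD of each count, the uncertainty left by reads that fit several genes. It was at most 0.524% of the count for any member in any library, the highest being for sav. The mean transcript length of a gene, weighted by the isoforms it was assigned to, was also given per library. It varied for 8 members and did not overlap between the groups for 5 of them, where 41.1% of 4693 tested genes with a varying length did not overlap. The largest shift was that of Mer, at 2639 and 2609 bases after heat shock, against 2543 and 2545 bases in untreated cells, a difference of 3.15%. The files hold 2 transcripts of Mer. The lengths of yki were 1433.5 and 1449 bases after heat shock, against 1467 and 1453 bases in untreated cells, and those of sd, kibra and Tgi differed by 1.26%, 0.922% and 0.326%.

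The wider pathway was described from 5 lists with 69 genes, of which 61 passed the filter. Of these 19 were higher and 4 lower, where 21.4% of all genes were higher and 18.6% lower. The share called in either direction, 37.7%, was near the 40% of all genes, but rises predominated. The median log2 fold change of the 61 genes was 0.14. With total counts 2 were higher and 46 lower, where 8.75% of all genes were higher and 71.2% lower. The predominance of rises thus depends on the scale. With totals that leave out the heat shock genes 7 were higher and 20 lower, against 15.1% and 38.6% of all genes. DESeq2 gave 11 higher and 3 lower, against 11.7% and 5.79% of all genes.

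Among partners of Yki or Sd, 4 of 16 genes tested were higher and 1 lower, or 31.2% called, where 40% of all genes were called. The largest rise was that of vg (2R, 12884201 to 12899385, plus strand), the wing selector gene whose product, like Tgi, binds Sd through a Tondu domain. It had 100 and 99 estimated counts after heat shock, against 15 and 14 in untreated cells, or 9.98 and 11.3 CPM against 1.201 and 1.14 CPM. The log2 fold change was 3.17 ± 0.22 (SE, edgeR adjusted p = 1.9e-05), past the threshold in all alternatives with values from 1.70 to 3.26. The ratio of vg over sd counts was 0.0163 and 0.0200 after heat shock, against 0.00251 and 0.00218 in untreated cells, so vg was far less abundant than sd in each. Of the other wing disc markers, nub had no count in any library and wg had 4 to 6 counts. AspRS, whose end lies 1033 bases upstream of vg on the same strand, had a log2 fold change of 0.0046 ± 0.06 (SE). The gene Trl, which encodes GAGA factor, was lower, at 81.6 and 79.8 CPM after heat shock against 169.7 and 176 CPM in untreated cells (log2 fold change -1.10 ± 0.06 SE, edgeR adjusted p = 6.4e-06). It shares 71.01% of its exonic bases with CG42507 on the same strand, so its count is uncertain.

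The 14-3-3 proteins hold phosphorylated Yki in the cytoplasm. Their gene 14-3-3epsilon had 4556 and 4313 CPM after heat shock, against 2800.3 and 3502 CPM in untreated cells, and 14-3-3zeta had 3534 and 3560.0 CPM against 2474 and 2771 CPM. The groups did not overlap for either gene. The rise was 0.49 for 14-3-3epsilon and 0.44 for 14-3-3zeta as log2 fold changes (edgeR adjusted p = 0.00638 and 0.00252), with values of -0.039 and -0.098 with total counts, not past the threshold. The coactivator gene tai, which the study also named from these libraries, was higher by 0.34 and reversed to -0.20 with total counts.

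Among genes described as targets of Yki and Sd in fly tissues, 6 of 13 tested were higher and 1 lower, where 21.4% of all genes were higher and 18.6% lower. The lower gene was Diap1 (3L, 16038410 to 16051034, minus strand), the caspase inhibitor through which Yki promotes survival. It had 191 and 219 CPM after heat shock, against 263 and 246 CPM in untreated cells, or -0.31 ± 0.08 (SE) on the log2 scale (edgeR adjusted p = 0.0144). The groups did not overlap, but the call was lost without the first heat shock library (-0.22, edgeR adjusted p = 0.0665). An antisense RNA, asRNA:CR45889, overlaps 11.04% of the exonic bases of Diap1. The growth regulator Myc (X, 3373159 to 3391697, plus strand) moved the other way, with 666 and 650.0 CPM after heat shock against 396 and 426 CPM in untreated cells. It was higher by 0.68 ± 0.06 (SE) on the log2 scale (edgeR adjusted p = 1.1e-04), and by 0.15 with total counts (edgeR adjusted p = 0.0594). CG12535 overlaps 40.9% of the exonic bases of Myc on the opposite strand and lncRNA:CR44999 overlaps 20.3% on the same strand, so its count is uncertain too. The relaxin-like gene Ilp8 had 13 and 12 counts after heat shock, against 4 and 0 in untreated cells. It passed the filter on low counts through the heat shock libraries alone, so that a difference was set by the filter, and its values are a description although it is among the 6 counted as higher. The polarity gene crb and the EGFR ligand gene vn were higher by 0.30 and 0.41 and turned to -0.23 and -0.12 with total counts. The calls were lost without the second heat shock library for crb (0.26, edgeR adjusted p = 0.107) and without the first for vn (0.25, edgeR adjusted p = 0.2898). They were also lost with DESeq2 (adjusted p = 0.291 for crb and 0.284 for vn) and with totals that leave out the heat shock genes (0.287 and 0.182), and for crb without the low-count filter (0.0515). CycE and chinmo belong to the list and are named here after their values were seen. They were higher by 0.27 and 0.25 on the TMM scale (edgeR adjusted p = 0.0255 and 0.0144). Both rises were smaller than the shift of -0.53 that total counts give the median gene. On the TMM scale the target genes thus did not move in a single direction. With total counts 1 target was called higher and 7 lower, where 8.75% of all genes were higher and 71.2% lower. The miRNA gene mir-ban, the source of bantam, had no count in these poly(A) libraries, and fj, Ser, wg and upd1 were under the filter.

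Of the membrane, polarity and spectrin inputs, 7 of 23 genes tested were higher and 1 lower, or 34.8% called, where 40% of all genes were called. The atypical cadherin gene ft was higher by 0.54 ± 0.15 (SE, edgeR adjusted p = 0.0203), with 10.1 and 11.7 CPM after heat shock against 7.60 and 7.27 CPM in untreated cells. The phosphatase gene Pez, whose product binds Kibra, was higher by 0.41 ± 0.07 (SE, edgeR adjusted p = 0.00271), and scrib by 0.35 ± 0.07 (SE, edgeR adjusted p = 0.00572). Pez and scrib turned to -0.12 and -0.19 with total counts, whereas ft was at 0.0096, and scrib was not past the threshold with totals that leave out the heat shock genes (edgeR adjusted p = 0.0582). The call of ft was lost without the second heat shock library (0.43, edgeR adjusted p = 0.0916), with DESeq2 (adjusted p = 0.253) and with totals that leave out the heat shock genes (0.0802). Schip1, which encodes a partner of Ex that recruits the kinase Tao, was higher by 0.58 ± 0.20 (SE, edgeR adjusted p = 0.0451) and lost this call without the second heat shock library (0.28, edgeR adjusted p = 0.301), with DESeq2 (adjusted p = 0.212), with limma-voom (0.0546) and with totals that leave out the heat shock genes (0.124). The Ajuba gene jub, whose product binds and inhibits Wts at junctions, was lower, at 61.8 and 56.8 CPM after heat shock against 74.8 and 72.3 CPM in untreated cells (log2 fold change -0.31 ± 0.07 SE, edgeR adjusted p = 0.00894). Without the second heat shock library jub missed the threshold (-0.26, edgeR adjusted p = 0.0533), as it did with DESeq2 (adjusted p = 0.0637).

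The STRIPAK phosphatase complex keeps Hpo inactive, and 3 of its 7 listed genes were past the threshold, or 42.9%, near the 40% of all genes. The catalytic subunit gene mts and the striatin gene Cka were higher by 0.33 ± 0.07 and 0.32 ± 0.06 (SE, edgeR adjusted p = 0.00548 and 0.00356), and reversed to -0.20 and -0.22 with total counts. With totals that leave out the heat shock genes neither was past the threshold (edgeR adjusted p = 0.0614 and 0.0723). Slmap, which encodes the adaptor that brings Hpo to the complex, was lower, at -0.30 ± 0.07 on the log2 scale (SE, edgeR adjusted p = 0.0129), with 155 and 159 CPM after heat shock against 203 and 181 CPM in untreated cells. Its call was lost without the first untreated library (-0.22, edgeR adjusted p = 0.0573). In the related NDR branch, trc was higher by 0.24 ± 0.07 (SE, edgeR adjusted p = 0.0206) and turned to -0.29 with total counts. Its call was lost without the first untreated library (0.22, edgeR adjusted p = 0.0648) and without the first heat shock library (0.18, edgeR adjusted p = 0.113). It was also lost with the replicate block (edgeR adjusted p = 0.0554), with DESeq2 (adjusted p = 0.0834) and with totals that leave out the heat shock genes (0.06, edgeR adjusted p = 0.451). Mob2 and fry were not past the threshold.

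**Figure D5:**
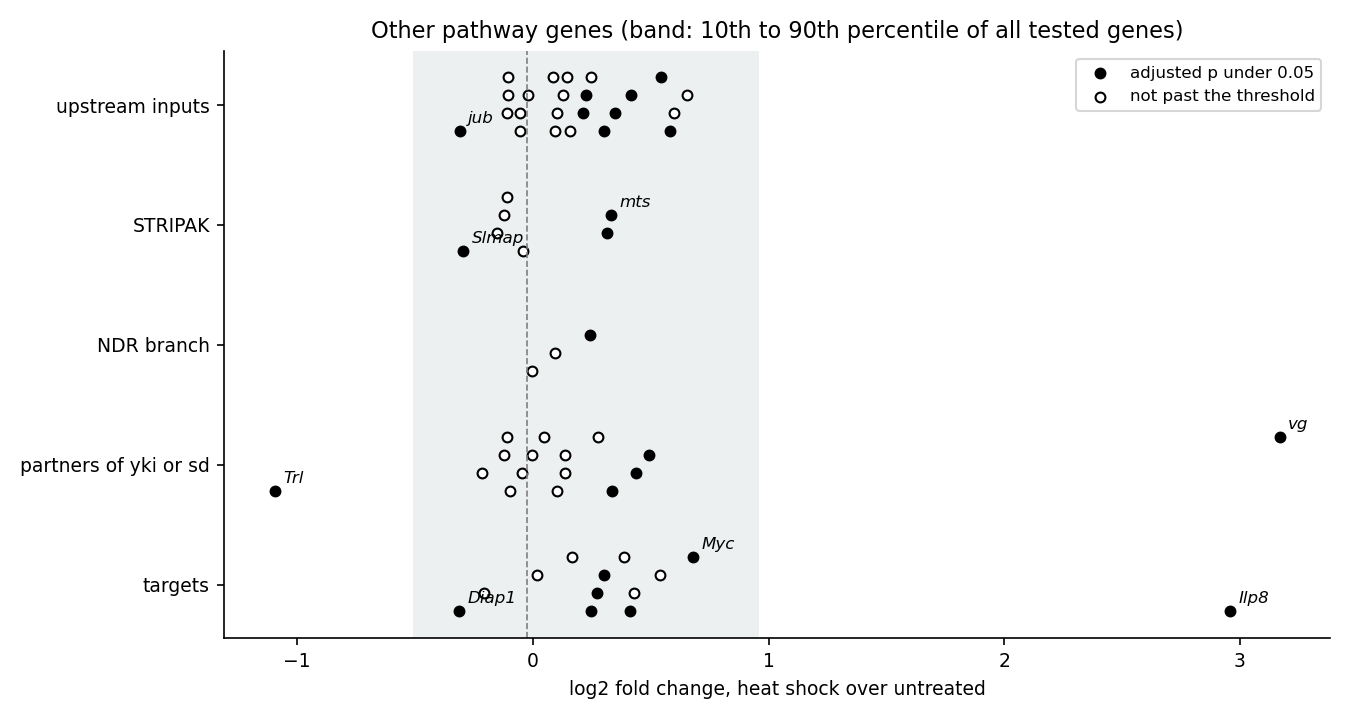
Log2 fold change of heat shock over untreated (horizontal axis) on the TMM scale for the tested genes of the 5 lists, filled where the edgeR adjusted p is under 0.05. The grey band spans the 10th to 90th percentile of all tested genes, -0.50 to 0.95, and the dashed line is their median, -0.02. In these lists vg and Ilp8 lie above the band and Trl below it. With total counts only 2 of these genes are called higher and 46 lower, where 8.75% of all genes are higher and 71.2% lower.

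Finally, the genes most like Tgi were sought by the distance of log2(CPM + 1) values over the 4 libraries. The nearest were Trf4-1, Kdm2 and fok, at distances of 0.10, 0.16 and 0.20. Their log2 fold changes were 0.63, 0.61 and 0.71, against 0.61 for Tgi itself. With 4 libraries in 2 groups, this likeness rests on the level and a single contrast.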

How the data were processed

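Poly(A) RNA of 4 S2 libraries was read at 50 bp. The authors made estimated counts (expected count values of RSEM, not normalized) per gene from trimmed and aligned reads and deposited them for each library. The same deposited tables hold a posterior mean count, a posterior SD of the count, TPM, bounds of a TPM credibility interval (deposited signal values whose level is not given in the sources used here), and mean transcript lengths. Per the submitters' processing notes, Trimmomatic 0.36, STAR 2.6.1c and RSEM 1.3.1 were used with the builds dm6 and BDGP6. RSEM shares reads among genes. Use of strand is not given in the sources used here. Pooled tables were not used.

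Estimated counts were rounded. Genes were kept by filterByExpr, scaled with TMM factors and tested in edgeR 4.0.16 (R 4.3.3) by quasi-likelihood, two-sided, with Benjamini-Hochberg adjustment over all 8784 genes and a threshold of 0.05. SE was derived from the fold change and its F statistic. CPM use TMM-scaled totals. The test was checked on simulated data with few changed genes, whose rises and falls were drawn at random. The check does not cover the assumption of the TMM factors. Symbols and 1-based coordinates came from a later gene build of the same BDGP6 assembly, which matched 17570 of 17697 genes. No sequences were used here. Library totals are given in the report.

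Members and gene lists were chosen with earlier results of these data known. Named genes are the 10 members, in each other list at most the 4 largest rises and 4 largest falls past the threshold, and the 3 genes nearest to Tgi. Alternatives were DESeq2 1.42.0, limma-voom and limma 3.58.1 on TPM (pseudocounts 1 and 0.1), other scalings and filters, posterior mean counts, a replicate block and leaving out each library. Promoter motifs were not examined.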

Additional observations from a re-analysis of the deposited data

How the results depend on the processing

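Scaling had the largest effect. Over all genes, 3513 were called (1882 higher, 1631 lower). Total counts gave 7024 (769 higher, 6255 lower), log2(TPM + 1) gave 6750 (760 higher, 5990 lower), log2(TPM + 0.1) gave 6634 (723 higher, 5911 lower), and log2(TPM + 1) without a filter gave 6582 (1099 higher, 5483 lower). DESeq2 gave 1824 (1221 higher, 603 lower), and totals that leave out the heat shock genes gave 3430 lower. The higher share of calls was 53.6%, against 10.9%, 11.3%, 10.9%, 16.7%, 66.9% and 28.2% in these settings.

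Hippo members called were 9 with total counts (0 higher, 9 lower), 9 on log2(TPM + 1) (0 higher, 9 lower), and 8 on log2(TPM + 0.1) and on log2(TPM + 1) without a filter (0 higher, 8 lower). Totals that leave out the heat shock genes left 1 higher. At least 10 counts in every library gave 4 higher and 2 lower, where 1578 of the 7974 genes tested were higher and 1453 lower. Without 1 library, the members called ranged from 3 to 6, with 1 to 4 higher. Each such fit leaves a group with a lone sample, assumed to vary like the others, so these counts are not set against those of all genes. Other pathway genes called were 48 with total counts (2 higher, 46 lower), 43 (2 and 41), 42 (1 and 41) and 41 (2 and 39) on the TPM scales in the order above, and 14 with DESeq2 (11 higher). Totals that leave out the heat shock genes gave 7 higher and 20 lower.

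Reversed log2 fold changes follow for total counts, log2(TPM + 1), log2(TPM + 0.1) and log2(TPM + 1) without a filter, in that order. They were -0.32, -0.29, -0.29 and -0.29 for yki, -0.30 in each for sd, -0.46, -0.43, -0.44 and -0.43 for wts, -0.52, -0.49, -0.50 and -0.49 for mats, -0.33 in each for kibra, and -0.37, -0.40, -0.40 and -0.40 for Mer. They were -0.039, -0.046, -0.046 and -0.046 for 14-3-3epsilon, -0.10, -0.11, -0.11 and -0.11 for 14-3-3zeta, -0.22, -0.19, -0.19 and -0.19 for Cka, -0.12, -0.10, -0.11 and -0.10 for Pez, -0.23, -0.19, -0.21 and -0.19 for crb, -0.20, -0.19, -0.19 and -0.19 for mts, -0.19, -0.18, -0.19 and -0.18 for scrib, -0.20, -0.19, -0.19 and -0.19 for tai, -0.29, -0.30, -0.30 and -0.30 for trc, and -0.12, -0.047, -0.055 and -0.047 for vn. These scales carry no composition factor. With totals that leave out the heat shock genes, wts was at -0.10, mats at -0.17 and Mer at -0.020. The value of mats, near 0, was also below 0 with DESeq2 (-0.0021), without the low-count filter (-0.027), and over the fits without 1 library it ranged from -0.065 to 0.085.

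No pairing of the libraries is given by the labels beyond shared replicate numbers, and same-numbered libraries deviated with a correlation of -0.17. The replicate block gave 3269 calls over all genes and 4 members, 2 of them higher and 2 lower, and 17 higher and 4 lower other pathway genes. The crossed pairing, added after seeing the data, gave 8 members (5 higher) and 36 other pathway genes (9 lower), with 4640 calls over all genes (2342 higher, 2298 lower). The members with lengths that did not overlap were 5, where 41.1% of tested genes with a varying length did not overlap. Leaving out 1 library makes no overlap easier to reach for any gene, so counts without 1 library are not compared here. Of 14 heat shock genes, 13 or 14 were called in every setting.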

Other observations

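Of 6 hemocyte markers tested, 3 were higher and 1 lower on the TMM scale, where 21.4% of all genes were higher and 18.6% lower. The transcription factor gene srp was higher by 0.37 (edgeR adjusted p = 0.00856). The collagen genes vkg and Col4a1 were higher by 0.29 and 0.23 (edgeR adjusted p = 0.0106 and 0.0350). Each rise was smaller than the shift of -0.53 that total counts give the median gene. The receptor gene crq was lower, at -0.45 (edgeR adjusted p = 7.4e-04). Its exons overlap those of ex on the opposite strand over 15.7% of their bases. The summed level of the 9 hemocyte markers was 241 and 228 TPM after heat shock, against 357 and 362 TPM in untreated cells. TPM carry no composition factor, so the groups' sums also differ by the scale.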
